A study of Homo sapiens with 12 samples.

Results

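Expression of 10 chemokine genes was followed in U2OS-ERα cells, a human osteosarcoma line that carries estrogen receptor α, after siRNA against the coactivator SRC-1 and after estradiol. The genes were CXCL1, CXCL2, CXCL3, CXCL5, CXCL6, CXCL8, CCL2, CCL3, CCL5 and CCL20, chosen by name as secreted attractants of leukocytes, with earlier results of these data known. Each had exactly 1 probe set annotated with its symbol alone. They are 10 of the 18417 genes with such a probe set. The 12 Affymetrix Human Gene 1.0 ST arrays fall into 4 groups of 3 biological replicates: SRC-1 siRNA with estradiol, SRC-1 siRNA with vehicle, non-targeting siRNA with estradiol and non-targeting siRNA with vehicle. All cells received 50 nM of an siRNA pool, were kept from the next day in medium with charcoal-stripped serum, and were given 17-B-estradiol or ethanol, the vehicle, for 3 h. The cells are 1 engineered line with an introduced receptor, so the arrays are repeats of that line; p-values measure the spread among the replicates.

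Chemokines are small secreted proteins that bind G protein-coupled receptors on leukocytes and guide their migration. The CXC ligands CXCL1, CXCL2, CXCL3, CXCL5, CXCL6 and CXCL8 (interleukin-8) act on CXCR2, and CXCL6 and CXCL8 also on CXCR1, and are known as attractants of neutrophils. Among the CC ligands, CCL2 attracts monocytes through CCR2, CCL3 acts on CCR1, CCL5 on CCR1 and CCR3, and CCL20 attracts dendritic cells and lymphocytes through CCR6. Many of these genes are silent or low in resting cells and are switched on by interleukin-1 or tumor necrosis factor through NF-kB and AP-1, and SRC-1 is a coactivator of nuclear receptors that has also been described with these factors.

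Promoter windows of 8 of the 10 genes were taken from RefSeq (GRCh38.p14), from 250 bases before to 50 bases after the transcription start. CXCL8, CCL3 and CCL20 are shown whole because these are the genes that were lower with SRC-1 siRNA. For CCL3, which has 3 listed starts, the farthest upstream is used. Capitals mark matches to the NF-kB type motif GGANNTTCC, to the AP-1 type motif TGANTCA, or to the motif of the transcription start machinery, TATAAA. Both strands were searched, and no match overlapped another.
CXCL8: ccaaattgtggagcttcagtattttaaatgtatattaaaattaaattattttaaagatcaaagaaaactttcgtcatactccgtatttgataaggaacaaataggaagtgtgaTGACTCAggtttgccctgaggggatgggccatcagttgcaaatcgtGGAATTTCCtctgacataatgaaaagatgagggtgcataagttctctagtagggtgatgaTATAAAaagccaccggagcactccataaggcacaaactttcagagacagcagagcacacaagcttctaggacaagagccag
CCL3: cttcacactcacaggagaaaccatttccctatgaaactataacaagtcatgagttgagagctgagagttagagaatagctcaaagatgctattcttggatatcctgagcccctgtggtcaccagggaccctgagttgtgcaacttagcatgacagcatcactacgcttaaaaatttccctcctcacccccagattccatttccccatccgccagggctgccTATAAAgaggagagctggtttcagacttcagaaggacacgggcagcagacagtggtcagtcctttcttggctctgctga
CCL20: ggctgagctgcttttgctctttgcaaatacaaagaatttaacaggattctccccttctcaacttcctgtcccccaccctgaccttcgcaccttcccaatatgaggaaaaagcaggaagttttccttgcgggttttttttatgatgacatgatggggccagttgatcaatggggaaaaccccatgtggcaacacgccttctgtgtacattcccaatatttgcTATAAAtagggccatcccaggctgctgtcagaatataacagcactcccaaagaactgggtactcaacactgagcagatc

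The windows lie at chr4:73740319-73740618 (plus strand) for CXCL8, chr17:36090094-36090393 (minus strand) for CCL3 and chr2:227813592-227813891 (plus strand) for CCL20. The 100 bases before the start are shown for the 5 other CXC genes, which sit in the same cluster as CXCL8 on chromosome 4 and were not lower with SRC-1 siRNA by the test, so that the shared NF-kB type match can be compared.
CXCL1: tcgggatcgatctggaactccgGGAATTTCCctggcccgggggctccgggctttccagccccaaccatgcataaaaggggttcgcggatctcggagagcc
CXCL2: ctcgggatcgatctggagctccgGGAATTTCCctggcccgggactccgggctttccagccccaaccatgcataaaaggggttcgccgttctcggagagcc
CXCL3: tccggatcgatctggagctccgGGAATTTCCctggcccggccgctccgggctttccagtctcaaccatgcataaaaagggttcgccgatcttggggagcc
CXCL5: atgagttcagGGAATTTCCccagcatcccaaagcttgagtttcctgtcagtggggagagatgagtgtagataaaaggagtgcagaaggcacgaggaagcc
CXCL6: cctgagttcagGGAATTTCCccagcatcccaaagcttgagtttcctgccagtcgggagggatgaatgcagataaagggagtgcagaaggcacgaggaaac

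These stretches are chr4:73869293-73869392 (plus) for CXCL1, chr4:74099196-74099295 (minus) for CXCL2, chr4:74038690-74038789 (minus) for CXCL3, chr4:73998678-73998777 (minus) for CXCL5 and chr4:73836578-73836677 (plus) for CXCL6. The NF-kB type match read GGAATTTCC in all 6 CXC windows, with its first base between positions -91 (CXCL8) and -77 (CXCL2) counted from the start. It was in neither the CCL3 nor the CCL20 window, and 4.56% of 35116 RefSeq windows of this length hold the motif. Only GGANNTTCC was searched, so the absence of a match does not show that a window lacks other forms of NF-kB site. The AP-1 type match TGACTCA was in the CXCL8 window alone, from position -137 to -131, against 7.71% of all windows. TATAAA was in 3 of the 8 windows, at -31 in CXCL8 and at -29 in CCL3 and CCL20, against 11.5% of all windows. Each of the other CXC stretches shown holds ATAAA after a C or a G, which this exact search does not count. The full palindromic estrogen response element was in 0 of 8 and in 0.057% of all. In global alignments the CXCL1 and CXCL3 windows were the same at 82.5% of aligned positions, gaps included, and the CXCL5 and CXCL6 windows at 83.1%. The CXCL8 window was the same as the other CXC windows at 42.6 to 44.9%. That is no more than with the CCL3 (47.8%) and CCL20 (47.7%) windows. A match is a description of letters and says nothing of binding.

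Values are log2 expression per probe set as deposited; on this scale a difference of 1 is a factor of 2. Array medians lay between 6.86 and 6.9, and arrays of 1 group correlated at 0.9952 to 0.9968. Both were taken over all 33297 probe sets of the array, of which 29094 were tested. The targeted gene NCOA1, which encodes SRC-1, averaged 6.86 ± 0.07 with SRC-1 siRNA and estradiol, 5.86 ± 0.29 with SRC-1 siRNA and vehicle, 9.08 ± 0.07 with non-targeting siRNA and estradiol, and 8.79 ± 0.06 with non-targeting siRNA and vehicle (SD, n = 3 each), 4.64-fold lower under estradiol and 7.60-fold lower under vehicle by limma (adjusted p = 7.92e-06 and 7.3e-07). ESR1, the receptor, averaged 12.03 to 12.16 in the 4 groups. Of the bone and mesenchymal markers, 8 of 9 were measured and none lay below the arrays' lower quartile (5.17 to 5.24) throughout, while 3 of 8 leukocyte markers (PTPRC, LYZ and MS4A1) lay below it on all 12 arrays. The other 5 leukocyte markers, CD14, CD68, ITGAM, CD3E and CSF1R, lay above it on all arrays, CD68 at a mean of 10.61 and the rest at means of 5.67 to 6.22. Of 4 epithelial and 4 endothelial markers, 0 lay below it on all arrays, so this measure does not tell the cell type. In such bulk samples, fewer cells that make a transcript and less transcript per cell cannot be told apart.

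CXCL8, CCL20 and CCL3 fell with SRC-1 siRNA under both treatments, by 1.68 to 2.57-fold, and the other 7 genes did not pass the test. A probe set is called here where limma's p is below 0.01 before and below 0.05 after Benjamini-Hochberg adjustment across the 29094 tested. Under estradiol 3 of the 10 genes were called lower and 0 higher, where 1.8% of all tested probe sets were called, 1.07% lower and 0.732% higher. Under vehicle it was again 3 lower and 0 higher, where 1.21% of all were called, 0.945% lower and 0.265% higher. As the 10 genes were chosen with earlier results of these data known, these counts are a description and not a test. The median difference of the 10 genes was -0.10 under estradiol and -0.03 under vehicle, beside -0.01 and 0 for all probe sets, so the decrease was that of a few members and not of the set.

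CXCL8 (probe set 8095680), the neutrophil attractant, read 9.14, 9.65 and 9.22 with SRC-1 siRNA and estradiol, against 10.56, 10.91 and 10.63 with non-targeting siRNA and estradiol. Under vehicle it read 9.20, 9.24 and 9.47 with SRC-1 siRNA, against 10.42, 10.13 and 10.20 with non-targeting siRNA. Every array with SRC-1 siRNA lay below every array with non-targeting siRNA. The difference was -1.36 ± 0.14 log2 (SE; 95% interval -1.67 to -1.05) under estradiol, 39.0% of the non-targeting level, with a limma adjusted p of 0.000727. Under vehicle it was -0.94 ± 0.14 (-1.25 to -0.64), 52.0% of the non-targeting level, with a limma adjusted p of 0.00724. Ordered from the lowest difference, CXCL8 stood at place 3 of 29094 probe sets under estradiol and at place 9 under vehicle.

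CCL20 (8048864), the ligand of CCR6, read 8.14, 8.29 and 8.11 with SRC-1 siRNA and estradiol, against 9.29, 9.57 and 9.35 with non-targeting siRNA and estradiol. With vehicle the values were 8.64, 8.75 and 8.90 with SRC-1 siRNA, against 9.83, 9.53 and 9.68 with non-targeting siRNA. The siRNA groups did not overlap under either treatment, and the lowest arrays were those with both SRC-1 siRNA and estradiol. The difference was -1.22 ± 0.10 log2 (SE; 95% interval -1.44 to -1.01) under estradiol, 2.33-fold lower (limma adjusted p = 0.000112). Under vehicle it was -0.91 ± 0.10 (-1.13 to -0.70), 1.89-fold lower (limma adjusted p = 0.00115).

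CCL3 (8014369), a ligand of CCR1, read 7.51, 7.73 and 7.26 with SRC-1 siRNA and estradiol, against 8.44, 8.44 and 8.60 with non-targeting siRNA and estradiol. Under vehicle it read 7.82, 7.96 and 7.85 with SRC-1 siRNA, against 8.69, 8.60 and 8.58 with non-targeting siRNA. Again all 6 arrays with SRC-1 siRNA lay below all 6 with non-targeting siRNA. The difference was -0.99 ± 0.10 log2 (SE; 95% interval -1.21 to -0.78) under estradiol, 1.99-fold lower (limma adjusted p = 0.000593), and -0.75 ± 0.10 (-0.96 to -0.53) under vehicle, 1.68-fold lower (limma adjusted p = 0.00369). CCL3 has near-identical copies, CCL3L1 and CCL3L3, and 3 further probe sets annotated with all 3 symbols held identical values. Those averaged 8.55 ± 0.16 with SRC-1 siRNA and estradiol, against 9.03 ± 0.10 with non-targeting siRNA and estradiol (SD, n = 3 each), and were also called lower, by smaller differences of -0.48 ± 0.08 under estradiol and -0.46 ± 0.08 under vehicle (SE; limma adjusted p = 0.0148 and 0.0191). The single-symbol probe set may still read the copies in part, so the size of the CCL3 decrease is uncertain.

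**Figure D1:**
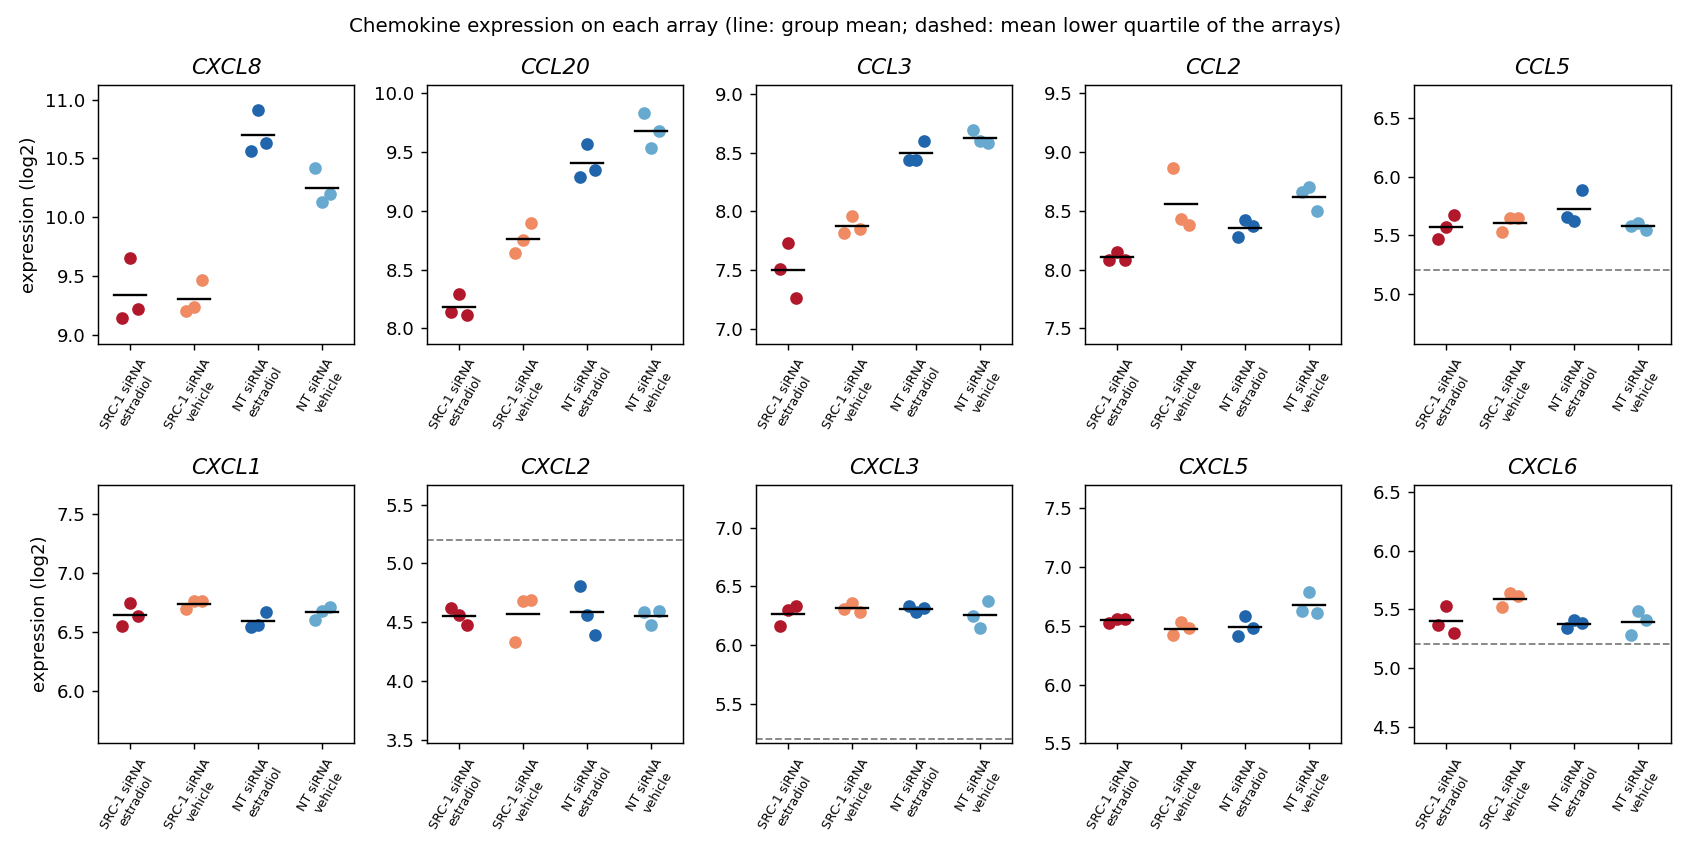
Expression (log2, y axis) of each of the 10 chemokine genes on each of the 12 arrays, by group on the x axis; points are arrays, short lines group means, the dashed line the mean lower quartile of the arrays, and all panels span the same number of log2 units. For CXCL8, CCL20 and CCL3 the arrays with SRC-1 siRNA lie below those with non-targeting siRNA, while the CXCL1, CXCL2 and CXCL3 groups lie close together.

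The other CXC ligands showed no such difference. Across CXCL1, CXCL2, CXCL3, CXCL5 and CXCL6 the knockdown difference ranged from -0.05 to 0.06 log2 under estradiol and from -0.20 to 0.19 under vehicle. For CXCL1 (8095697) the 95% interval ran from -0.08 to 0.18 under estradiol and from -0.05 to 0.20 under vehicle, and for CXCL3 (8100984) from -0.19 to 0.09 and from -0.08 to 0.20, so a decrease of the size seen for CXCL8 lay outside these intervals. CXCL2 (8100994) averaged 4.56 to 4.59 in the 4 groups, below the lower quartile on all 12 arrays, where its signal is not shown to exceed background and a change could be missed. CXCL1, CXCL3, CXCL5 and CXCL6 averaged 6.66, 6.29, 6.55 and 5.44 over the 12 arrays, below the array medians (6.86 to 6.9). Their signal over background was not measured, so a change could be missed there too.

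CXCL5 and CXCL6 had vehicle groups that did not overlap but did not pass the adjusted test. CXCL5 (8100977) read 6.42, 6.53 and 6.48 with SRC-1 siRNA and vehicle, against 6.63, 6.79 and 6.61 with non-targeting siRNA and vehicle, a difference of -0.20 ± 0.06 (SE; limma adjusted p = 0.161). CXCL6 (8095688) read 5.52, 5.64 and 5.61, against 5.28, 5.49 and 5.41 in the same groups, a difference of 0.19 ± 0.07 in the opposite direction (limma adjusted p = 0.253). In all, 5 of the 10 genes had groups that did not overlap under vehicle and 4 under estradiol, where 18.4% and 22.3% of all tested probe sets did.

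Among the remaining CC ligands, CCL2 (8006433), the monocyte attractant, differed by -0.26 ± 0.11 log2 (SE; 95% interval -0.50 to -0.02; limma adjusted p = 0.283) under estradiol and by -0.06 ± 0.11 (-0.30 to 0.18; adjusted p = 0.873) under vehicle. CCL5 (8014316), a T cell and monocyte attractant, differed by -0.15 ± 0.08 (-0.31 to 0.02) under estradiol and by 0.03 ± 0.08 (-0.14 to 0.19) under vehicle. Neither was called. The CCL5 group means lay between 5.57 and 5.72, below the array medians, and its signal over background was not measured.

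**Figure D2:**
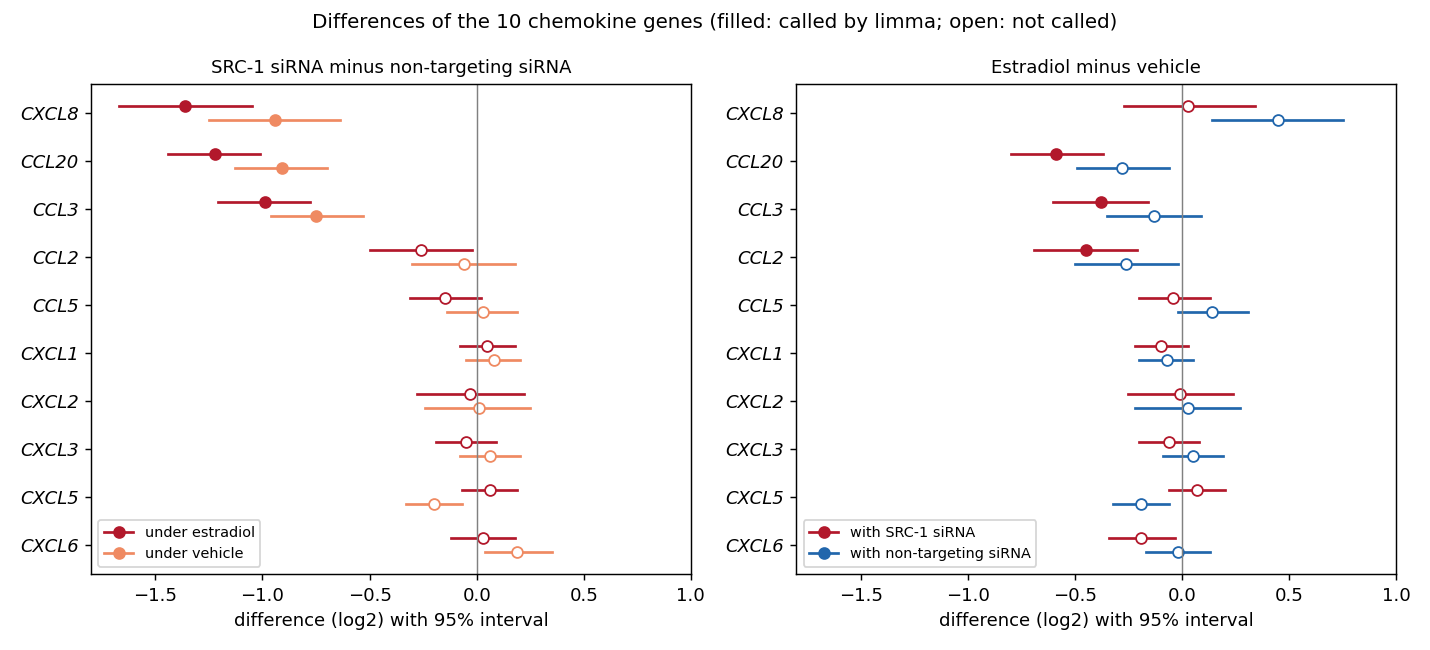
Differences (log2, x axis) of the 10 genes (y axis), for SRC-1 siRNA minus non-targeting siRNA on the left and estradiol minus vehicle on the right; points are limma estimates, filled where called, and bars are 95% intervals. CXCL8, CCL20 and CCL3 stand apart at -1.36 to -0.75 on the left, and CCL20, CCL2 and CCL3 are the filled points on the right, all with SRC-1 siRNA.

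CXCL8 and CCL3 lie in clusters of chemokine genes, and each was the single gene called with SRC-1 siRNA among the measured genes of the stretch examined. On chromosome 4 CXCL8 lies at one end of a run of 9 genes, followed by CXCL6, PF4V1, CXCL1, PF4, PPBP, CXCL5, CXCL3 and CXCL2, all measured, and CXCL8 alone was called. The other 8 lay between -0.05 and 0.06 log2 under estradiol and between -0.20 and 0.19 under vehicle. On chromosome 17 the stretch from CCL2 to CCL4 holds 41 genes in RefSeq, of which 33 had a probe set of their own, and CCL3 alone was called with SRC-1 siRNA. The other measured genes there lay between -0.26 and 0.26 under estradiol and between -0.28 and 0.18 under vehicle. The copies CCL3L1 and CCL3L3 are not listed in this stretch, and the probe sets shared with them were called lower too, as given above. No test of whether a gene differs from its neighbours was run.

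**Figure D3:**
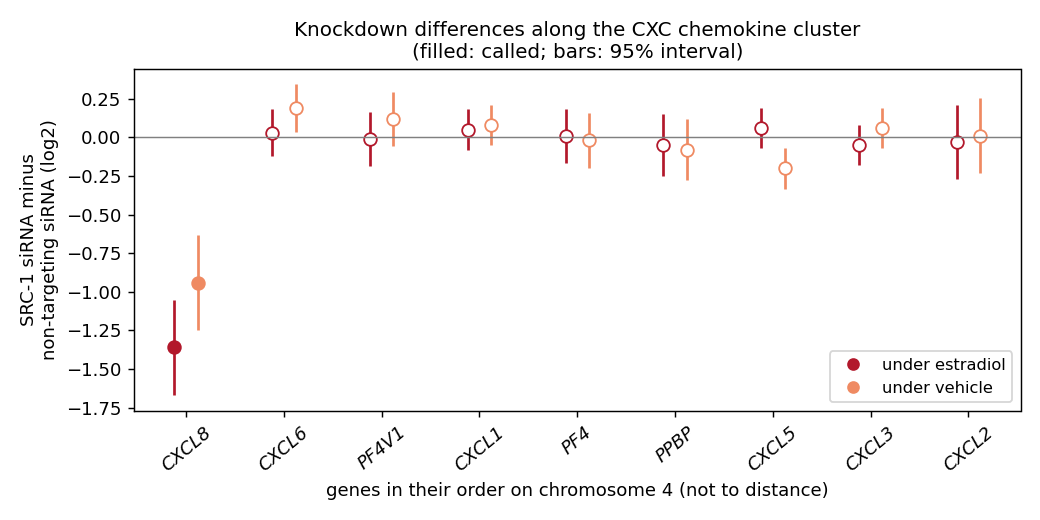
SRC-1 siRNA minus non-targeting siRNA (log2, y axis) of the 9 genes of the CXC cluster in their order on chromosome 4 (x axis, not to distance); points are limma estimates, filled where called, and bars 95% intervals. CXCL8 lies at -1.36 and -0.94, and the other genes lie between -0.20 and 0.19.

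Estradiol for 3 h gave a different set of calls. With SRC-1 siRNA, CCL20, CCL2 and CCL3 were lower after estradiol at 66.6%, 73.1% and 76.9% of the vehicle level, and the other 7 genes were not called, where 6.88% of all tested probe sets were called, 2.39% lower and 4.49% higher. With non-targeting siRNA 0 of the 10 genes were called, where 2.73% of all probe sets were, 1.85% higher and 0.873% lower. An unadjusted limma p under 0.05 was reached by 4 of the 10 with SRC-1 siRNA, where 6740 of 29094 probe sets reached it, and by 4 with non-targeting siRNA, where 3863 did.

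CCL2 read 8.08, 8.15 and 8.08 with SRC-1 siRNA and estradiol, against 8.86, 8.43 and 8.38 with SRC-1 siRNA and vehicle. With non-targeting siRNA it read 8.28, 8.42 and 8.37 after estradiol, against 8.66, 8.70 and 8.50 after vehicle. Estradiol and vehicle arrays did not overlap with either siRNA. The difference was -0.45 ± 0.11 log2 (SE; 95% interval -0.69 to -0.21; limma adjusted p = 0.0312) with SRC-1 siRNA and -0.26 ± 0.11 (-0.50 to -0.02; adjusted p = 0.323) with non-targeting siRNA. The call was lost without any 1 of the 3 arrays with SRC-1 siRNA and estradiol (limma adjusted p = 0.0569 to 0.0922).

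For CCL20, whose arrays are given above, the difference was -0.59 ± 0.10 log2 (SE; 95% interval -0.80 to -0.37; limma adjusted p = 0.00465) with SRC-1 siRNA, where the treatments did not overlap. With non-targeting siRNA it was -0.28 ± 0.10 (-0.49 to -0.06; adjusted p = 0.217), where they did. CCL3 differed by -0.38 ± 0.10 (-0.60 to -0.16; limma adjusted p = 0.0439) with SRC-1 siRNA and by -0.13 ± 0.10 (-0.35 to 0.09; adjusted p = 0.637) with non-targeting siRNA. The call of CCL3 with SRC-1 siRNA was close to the threshold: it held in 8 of 22 alternative settings, with adjusted p from 0.00825 to 0.898, fell to -0.26 without the third array with SRC-1 siRNA and estradiol (limma adjusted p = 0.107), and the probe sets shared with the CCL3 copies differed by -0.09 (adjusted p = 0.536).

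Probe sets outside the tests also moved with estradiol. The 4203 probe sets left out of the tests as presumed controls deviated from their 12-array mean by 0.135 ± 0.042 log2 with SRC-1 siRNA and estradiol, -0.091 ± 0.067 with SRC-1 siRNA and vehicle, 0.032 ± 0.036 with non-targeting siRNA and estradiol, and -0.076 ± 0.043 with non-targeting siRNA and vehicle (SD, n = 3 each). With this mean as a covariate the estradiol difference with SRC-1 siRNA was -0.59 ± 0.231 for CCL20, -0.76 ± 0.232 for CCL2 and -0.13 ± 0.216 for CCL3 (SE), and none was called (limma adjusted p = 0.459, 0.315 and 0.898). The standard errors were larger in that fit, and the covariate differs between the treatments; why the calls were lost was not tested.

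CXCL8 had the highest difference of the 10 after estradiol with non-targeting siRNA, without a call. With non-targeting siRNA its estradiol arrays all lay above its vehicle arrays, and the difference was 0.45 ± 0.14 log2 (SE; 95% interval 0.14 to 0.75), 1.36-fold, with a limma p of 0.00813 that did not hold after adjustment (adjusted p = 0.156). With SRC-1 siRNA it was 0.03 ± 0.14 (-0.27 to 0.34; adjusted p = 0.918). CXCL5 differed by -0.19 ± 0.06 with non-targeting siRNA (limma adjusted p = 0.165); this comparison and its knockdown difference of -0.20 share the 3 arrays with non-targeting siRNA and vehicle, on which CXCL5 was highest. CXCL1, CXCL2, CXCL3, CXCL6 and CCL5 differed by -0.19 to 0.14 in the 2 estradiol comparisons, with no call. The treatments did not overlap for 3 of the 10 genes in cells with SRC-1 siRNA, where 25.8% of all tested probe sets did not, and for 4 in cells with non-targeting siRNA, where 21% did not.

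The levels across the 4 groups can therefore be ordered as follows. CXCL8 was lowest in both groups with SRC-1 siRNA, which did not differ beyond their spread, higher with non-targeting siRNA and vehicle and highest with non-targeting siRNA and estradiol. CCL20 and CCL3 were lowest with SRC-1 siRNA and estradiol, then with SRC-1 siRNA and vehicle, and the 2 groups with non-targeting siRNA overlapped above them. CCL2 was lowest with SRC-1 siRNA and estradiol; its groups with non-targeting siRNA and estradiol overlapped the arrays of SRC-1 siRNA with vehicle, as both vehicle groups overlapped each other.

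Whether the estradiol effect itself differed between the siRNA groups was tested as the difference of the 2 effects, and 0 of the 10 genes and 0 of 29094 probe sets were called (limma; smallest adjusted p of all = 0.392), with 2 of the genes and 2102 probe sets at an unadjusted p under 0.05. The difference was -0.42 (95% interval -0.85 to 0.02) for CXCL8, -0.31 (-0.61 to 0) for CCL20, -0.25 (-0.55 to 0.06) for CCL3, -0.19 (-0.53 to 0.15) for CCL2 and 0.26 (0.07 to 0.44) for CXCL5, with limma adjusted p of 0.703, 0.689, 0.75, 0.842 and 0.588. A call in one siRNA group and not in the other therefore does not show that the groups differ. Its median over the 10 genes was -0.17, against 0 over all probe sets.

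Genes whose levels ran most like those of the called members were found by Pearson correlation over the 12 arrays, among 18416 other genes, as a description; the arrays share the same 4 groups. Most like CXCL8 were PPIF (r = 0.982), a mitochondrial cyclophilin, FMNL1 (0.976), a formin, and SRPRA (0.968), a subunit of the signal recognition particle receptor. Most like CCL20 were TSC22D2 (0.979), TGFBI (0.979), an extracellular matrix protein, and ANTXR2 (0.978), an anthrax toxin receptor. TGFBI differed by -0.84 log2 with SRC-1 siRNA under estradiol and by -0.56 under vehicle, and ANTXR2 by -0.65 and -0.39, whereas PPIF differed by only -0.18 and -0.11. Most like CCL3 were GET3 (0.973), which inserts tail-anchored proteins, the integrin ITGA5 (0.972) and the xylosyltransferase XYLT2 (0.971), and most like CCL2 were BMP5 (0.904), FABP4 (0.9) and FLRT2 (0.889). None of these is a chemokine.

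No further chemokine ligand with a probe set of its own was called with SRC-1 siRNA. Of 14 other CXC, CX3C and XC ligands, all measured, 0 were called under either treatment (median -0.04 under estradiol and -0.02 under vehicle), and of 20 other CC ligands 16 were measured and 0 were called (medians -0.03 and -0.02). Of all tested probe sets 1.8% were called under estradiol and 1.21% under vehicle, so 0 calls in lists of this size says little. CXCL14 differed by 0.25 ± 0.43 (SE; 95% interval -0.70 to 1.20) under estradiol, where the groups did not overlap, and by -0.25 ± 0.43 (-1.20 to 0.70) under vehicle, intervals wide enough to include, under vehicle, a decrease of the size seen for CXCL8. CXCL16 differed by -0.06 and -0.04, CCL17 by -0.04 and 0.11, and CCL22 by -0.10 and -0.11. After estradiol the single call in these lists was CXCL10, an interferon-induced ligand, at -0.25 ± 0.07 (SE; limma adjusted p = 0.0469) with SRC-1 siRNA, with group means of 3.98 and 4.23 that lie below the arrays' lower quartile. In that comparison 6.88% of all tested probe sets were called.

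The receptors that answer to these ligands were not called with SRC-1 siRNA. Of 18 chemokine receptors 16 were measured and 0 were called under either treatment, and so it was for 5 of 5 atypical receptors. With 1.8% of all tested probe sets called under estradiol and 1.21% under vehicle, 0 calls here says little. CXCR2, CCR1 and CCR2 lay below the lower quartile on all 12 arrays and CXCR1 on 11, so their levels are not shown to exceed background. CCR6, the receptor of CCL20, had a mean of 5.43 and lay below it on 1 array; it differed by -0.05 ± 0.09 (SE) with SRC-1 siRNA under estradiol and by -0.17 ± 0.09 under vehicle, without a call. After estradiol with SRC-1 siRNA, CCR10, the receptor of CCL27 and CCL28, differed by -0.26 ± 0.06 (SE; limma adjusted p = 0.0337), and ACKR3, a scavenger of CXCL12, by 0.47 ± 0.11 (adjusted p = 0.0224). The ACKR3 means were 5.25 with estradiol and 4.78 with vehicle, and it lay below the lower quartile on 9 of 12 arrays, so its vehicle level is not shown to exceed background and the size of the difference is uncertain. With non-targeting siRNA 0 in either list were called. Of all tested probe sets 6.88% were called after estradiol with SRC-1 siRNA and 2.73% with non-targeting siRNA.

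Upstream of these genes, the input receptors for interleukin-1, tumor necrosis factor and microbial ligands showed a single knockdown call among 13 measured of 15. For this and the next lists, the shares of all tested probe sets are 1.07% called lower and 0.732% higher under estradiol. Under vehicle they are 0.945% lower and 0.265% higher. IL1RAP, the accessory protein of the interleukin-1 receptor, averaged 7.62 ± 0.01 with SRC-1 siRNA and estradiol, against 7.97 ± 0.04 with non-targeting siRNA and estradiol (SD, n = 3 each), and 7.49 ± 0.07 with SRC-1 siRNA and vehicle, against 7.87 ± 0.02 with non-targeting siRNA and vehicle. It differed by -0.35 ± 0.05 and -0.38 ± 0.05 (SE; limma adjusted p = 0.00314 and 0.00187). Of the NF-kB subunits, kinases and inhibitors, 16 of 17 were measured; 2 were called lower under estradiol and 1 under vehicle. NFKB2, which encodes the p100 precursor, differed by -0.32 ± 0.05 under both treatments (limma adjusted p = 0.0119 under estradiol and 0.0141 under vehicle), and RELB, its partner subunit, by -0.31 ± 0.07 under estradiol (adjusted p = 0.0393). Of 11 AP-1 and C/EBP factors, JUN was called higher under estradiol at 0.23 ± 0.05 (adjusted p = 0.041) and 0 were called under vehicle, and of 7 factors that bind AU-rich transcripts such as those of chemokines 0 were called.

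Some other inflammatory genes fell beside the chemokines. Of 19 measured of 20 cytokines and NF-kB target genes, 4 were called lower and 0 higher with SRC-1 siRNA under estradiol, and 5 lower and 1 higher under vehicle (median -0.22 and -0.14, against -0.01 and 0 over all probe sets). Of all tested probe sets 1.07% were called lower under estradiol and 0.945% under vehicle. This list too was chosen with earlier results of these data known, so its counts are a description. IL1A, an interleukin-1 that induces chemokines, averaged 7.12 ± 0.12 with SRC-1 siRNA and estradiol, against 8.11 ± 0.08 with non-targeting siRNA and estradiol (SD, n = 3 each), and differed by -0.99 ± 0.07 (SE; limma adjusted p = 6.33e-05). Under vehicle it averaged 7.22 ± 0.04 with SRC-1 siRNA, against 8.17 ± 0.11 with non-targeting siRNA, a difference of -0.95 ± 0.07 (adjusted p = 0.000134). ICAM1, an adhesion molecule for leukocytes, differed by -0.50 ± 0.05 and -0.51 ± 0.05 (limma adjusted p = 0.00106 and 0.00117). MMP1, an interstitial collagenase, differed by -1.16 ± 0.11 under estradiol (adjusted p = 0.000513), and IL11 by -0.41 ± 0.07 under vehicle (adjusted p = 0.0122). Neither was called under the other treatment: MMP1 differed by -0.23 ± 0.11 under vehicle (limma adjusted p = 0.431) and IL11 by -0.24 ± 0.07 under estradiol (0.107).

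**Figure D4:**
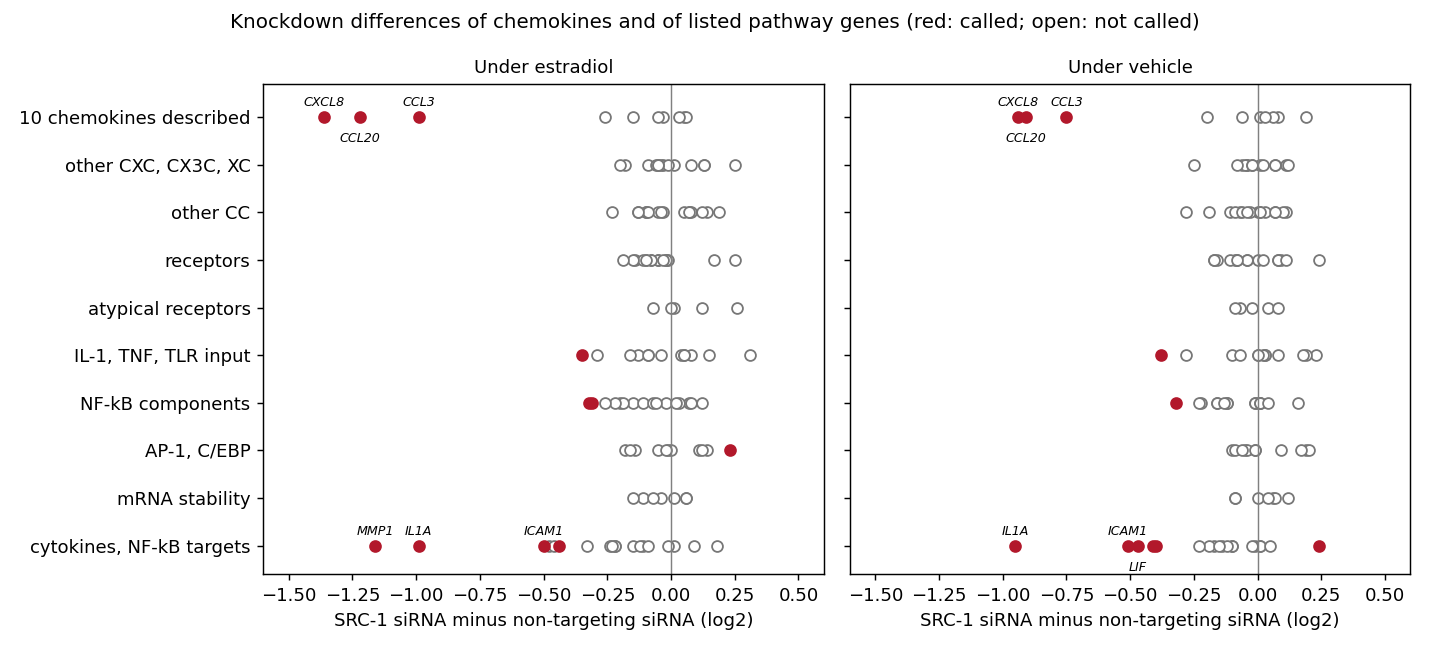
SRC-1 siRNA minus non-targeting siRNA (log2, x axis) of the 10 chemokine genes and of listed genes of the pathway (rows), under estradiol on the left and under vehicle on the right; each point is a gene, red where called and open where not, and called genes with larger differences are named. CXCL8, CCL20 and CCL3 lie at -1.36 to -0.75, IL1A and MMP1 lie in the same range under estradiol, and the rows of chemokine receptors and atypical receptors show no call.

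Estradiol moved genes around the chemokines in both siRNA groups. For the lists that follow, the shares of all tested probe sets are 4.49% called higher and 2.39% lower with SRC-1 siRNA. With non-targeting siRNA they are 1.85% higher and 0.873% lower. In the cytokine and NF-kB target list 6 were called higher and 2 lower with SRC-1 siRNA, and 5 higher and 1 lower with non-targeting siRNA. C3, the complement component, rose by 2.73 ± 0.10 log2 with SRC-1 siRNA and by 3.04 ± 0.10 with non-targeting siRNA, LIF by 1.14 ± 0.08 and 1.11 ± 0.08, and CSF1, the macrophage growth factor, by 1.02 ± 0.07 and 0.85 ± 0.07 (SE; limma adjusted p at most 2.01e-05 for each). Of the NF-kB list 2 rose and 1 fell with either siRNA: TNIP1, an inhibitor, by 0.39 ± 0.06 and 0.49 ± 0.06, BCL3 by 0.34 ± 0.06 and 0.47 ± 0.06, and NFKBIZ by -0.47 ± 0.06 and -0.42 ± 0.06 (adjusted p at most 0.00622). Among AP-1 and C/EBP factors 3 rose and 3 fell with SRC-1 siRNA and 3 rose and 2 fell with non-targeting siRNA, with FOSL2 at 0.92 and 0.77 and CEBPB at 0.49 and 0.59. Of the 7 factors for AU-rich transcripts 2 rose and 1 fell with SRC-1 siRNA and 1 rose and 1 fell with non-targeting siRNA. ZFP36, which binds AU-rich transcripts and speeds their decay, rose by 0.99 ± 0.07 and 1.01 ± 0.07, and ZFP36L1 fell by 0.54 and 0.48 on the log2 scale. Among the input receptors TLR4 was higher at 0.35 and TNFRSF1B lower at -0.33 with SRC-1 siRNA, and TNFRSF1A was higher at 0.21 with non-targeting siRNA.

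Some marker genes moved with the groups. The summed leukocyte markers lay at 10.69 to 10.86 log2 with SRC-1 siRNA and estradiol, 10.89 to 10.96 with SRC-1 siRNA and vehicle, 10.79 to 10.91 with non-targeting siRNA and estradiol, and 10.86 to 10.92 with non-targeting siRNA and vehicle. CD68 makes up most of these sums, with means of 10.69 and 10.64 in the vehicle groups with SRC-1 and non-targeting siRNA, so they say little of the other leukocyte markers. LYZ was called among the 8 (0.47 with SRC-1 siRNA and 0.89 with non-targeting siRNA after estradiol, and -0.35 with SRC-1 siRNA under estradiol), at levels below the lower quartile. In these 3 comparisons 6.88%, 2.73% and 1.8% of all tested probe sets were called. Of the 8 bone and mesenchymal markers, SPP1 (osteopontin) fell with SRC-1 siRNA by 0.87 under estradiol and by 0.71 under vehicle on the log2 scale and ALPL by 0.43 and 0.23, and 4 of 4 epithelial and 4 of 4 endothelial markers were not called in any comparison. Thus 2 of the 8 bone and mesenchymal markers were called lower in each knockdown comparison. Over all tested probe sets it was 1.07% under estradiol and 0.945% under vehicle. Whether these markers had a part in the chemokine differences was not tested.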

How the data were processed

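Per the submitters' design text and processing notes, the authors made the deposited log2 values (1 per probe set) with the affy package and tested them with limma; versions, background correction and normalization are not given in the sources used here. No value was changed. The array holds 33297 probe sets. Those numbered below 7896740, the first with an annotation, were presumed to be controls and left out (4203, an inference from the numbers), so that 29094 were tested. A probe set stands for a gene only where the platform annotation gives that symbol alone.

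A linear model with 4 group means was fitted to the 12 arrays together (limma 3.58.1, R 4.3.3; 8 residual degrees of freedom plus 3.15 from the empirical Bayes prior). Tests are two-sided, with Benjamini-Hochberg adjustment over all tested probe sets; the call thresholds, 0.01 unadjusted and 0.05 adjusted, are those of the design text. The median standard error was 0.071 log2, limited by the number of arrays. The 10 genes and 14 gene lists (157 genes, 145 measured) were chosen with earlier results of these data known. From each list the text names at most 3 called genes, smallest p first, or the 2 with the highest mean if none is called; CXCR1, CXCR2, CCR1, CCR2 and CCR6 are added as receptors of the ligands. For every called chemokine the 3 most correlated genes are named.

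The alternatives tried were a block for the replicate number, a fit without the other groups' arrays, removal of the 40% of probe sets with the lowest means, quantile normalization or median centring, trended robust variances, array weights, other sets of probe sets, a covariate from the left-out probe sets (their array mean), a minimum fold of 1.5, a stricter adjusted p of 0.01, and omission of each array. The GSK3 siRNA pool of the design text is not analysed here. Promoter sequences are from RefSeq (GRCh38.p14). The fit was tested on simulated data.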

Additional observations from a re-analysis of the deposited data

Results flagged for a closer look

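The 4203 probe sets left out of every test carried a signal that moved with estradiol: their array mean was higher after estradiol than after vehicle by 0.226 log2 with SRC-1 siRNA and by 0.109 log2 with non-targeting siRNA. What these probe sets measure is not given in the sources used here. Their part in the estradiol differences of CCL20, CCL2 and CCL3 was examined only through the fit with their mean as a covariate, given with those genes.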

How the results depend on the processing

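Each of 50 results (10 genes in 5 comparisons) was recomputed under 12 other settings and with each of the 12 arrays left out, as far as each applied, which gave 1175 values: 1151 kept their side of the threshold, 24 lost a call and 0 reversed a called difference, while 38 uncalled differences changed sign. The knockdown calls of CXCL8, CCL20 and CCL3 held in 22 of 22 settings, with differences of -1.52 to -1.26, -1.28 to -1.14 and -1.11 to -0.88 under estradiol and -1.03 to -0.86, -0.99 to -0.84 and -0.79 to -0.71 under vehicle. These 22 leave out the minimum fold and the stricter adjusted p, which did not remove these knockdown calls either. The count of genes called for estradiol with SRC-1 siRNA was 3. It was 1 with the compared arrays alone, 1 with a fold change of at least 1.5, and 1 at an adjusted p under 0.01. With the left-out probe set covariate it was 0. It was 1 to 3 with an array left out (1 without replicate 1 or 3 of SRC-1 siRNA with estradiol). The minimum fold and the lower adjusted p can only remove calls. Why calls were lost with the compared arrays alone, with the covariate or with an array left out was not tested. For estradiol with SRC-1 siRNA, CCL20, CCL2 and CCL3 were called in 21, 17 and 8 of the same 22 settings. The minimum fold and the stricter adjusted p, outside the 22, each removed the calls of CCL2 and CCL3 as well. The calls of CCL3 were also lost with all probe sets tested (limma adjusted p = 0.0523) and with median centring (0.0503). Deviations from the group means correlated at -0.03 to 0.21 in 12 pairs of same-numbered arrays, over 0.1 in 4. Whether same-numbered replicates share more than a number was not tested further. With the replicate block 2 genes were called for estradiol with SRC-1 siRNA (CCL3 at a limma adjusted p of 0.0514). That fit gave 3 calls in each knockdown comparison and 0 in the other comparisons. Each gene has 1 probe set of its own, so the next highest probe set gave no value, and the compared arrays alone could not be used for the difference of the effects. Signal over background was not measured, which limits CXCL2 and other low probe sets.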

Other observations

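CXCL14, a ligand outside the 10, had a wider spread between replicates in the vehicle groups than any member had there (SD 0.74 with SRC-1 siRNA and 0.98 with non-targeting siRNA), but not in the estradiol groups. With non-targeting siRNA it averaged 8.91 ± 0.16 log2 after estradiol and 8.44 ± 0.98 after vehicle (SD, n = 3 each), and its estradiol difference of 0.47 ± 0.43 (SE) was not called by limma (adjusted p = 0.713). Of the coactivator list, 4 of 5 genes were measured. NRIP1, a corepressor of nuclear receptors, was higher after estradiol by 0.40 ± 0.06 with SRC-1 siRNA and by 0.42 ± 0.06 with non-targeting siRNA (SE; limma adjusted p = 0.00324 in both). NCOA1 itself was higher after estradiol by 1.00 ± 0.11 with SRC-1 siRNA (adjusted p = 0.00029). COL1A2, a bone and mesenchymal marker, was lower after estradiol with SRC-1 siRNA by -0.22 ± 0.06 (adjusted p = 0.047).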
